A study of Mus musculus with 6 samples.

Results

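The TEAD transcription factors Tead1, Tead2, Tead3 and Tead4, their coactivators Yap1 and Wwtr1 (the gene of TAZ), the cofactor Vgll4 and the secreted CCN proteins Ccn1 (Cyr61) and Ccn2 (Ctgf) were followed in mouse embryos whose TEAD4 protein was targeted by antibody. They were chosen by name, as the array features annotated to these symbols alone, with the brightest feature standing for a gene. All 9 were found, each with 1 feature, among 30175 genes measured. Wwtr1 was matched by its gene identifier, since Taz is also the older symbol of tafazzin.

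The arrays hold total RNA of 6 pools of 10 embryos, with 2 pools (replicates a and b) in each of 3 groups. Zygotes from B6C3F1 females mated to CD1 males were injected in the ooplasm at the pronuclear stage, all groups on the same day, and cultured in KSOM(aa) medium. Every embryo received fluorescent dextran beads and mCherry-Trim21 mRNA, which encodes a ubiquitin ligase that binds antibodies and delivers their targets to the proteasome. The mCherry-Trim21 mRNA group received nothing else, the anti-GFP group also a mouse monoclonal antibody with no target in wildtype embryos, and the anti-TEAD4 group a mouse monoclonal antibody against TEAD4. RNA was taken 72 h after injection, which the labels equate with 96 h of culture and 4 dpc. In the labels a cavity was missing, small or aberrant in the anti-TEAD4 pools and normal in the control pools. The sample titles name the anti-TEAD4 pools as morulae/blastocysts and the control pools as blastocysts, so that stage and treatment cannot be told apart. The labels do not say whether the pools of a group came from separate females or litters, so that p values measure only the spread between these pools.

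TEAD proteins bind DNA but activate transcription only with a partner, chiefly YAP (Yap1) or TAZ (Wwtr1). In the preimplantation embryo, Hippo signalling keeps these partners out of the nucleus of inner cells, whereas in outer cells they enter it, join TEAD4 and turn on the trophectoderm genes Cdx2 and Gata3. VGLL4 binds the same TEAD surface as YAP and competes with it. CCN1 and CCN2, secreted proteins of the extracellular matrix, are classical targets of YAP and TEAD in cultured mammalian cells.

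The short sequence GGAATG, read on the opposite strand as CATTCC, is the core of the element that TEAD proteins bind. It was searched on both strands in the stretch from 250 bases before to 50 bases after each transcription start in RefSeq (build GRCm38.p6), and no matches overlapped in the promoters of these genes. The table of starts held 6 of the 9 genes (Ccn1, Vgll4, Yap1, Wwtr1, Tead2 and Tead3), with 9 starts in all. The promoters of Ccn1 and Vgll4 are printed because these genes had the largest differences in each direction between anti-TEAD4 and both control groups. The Ccn1 promoter lies at chr3:145649936-145650235 and the Vgll4 promoter at chr6:114969154-114969453, both on the minus strand, and capitals mark the searched letters.
Ccn1: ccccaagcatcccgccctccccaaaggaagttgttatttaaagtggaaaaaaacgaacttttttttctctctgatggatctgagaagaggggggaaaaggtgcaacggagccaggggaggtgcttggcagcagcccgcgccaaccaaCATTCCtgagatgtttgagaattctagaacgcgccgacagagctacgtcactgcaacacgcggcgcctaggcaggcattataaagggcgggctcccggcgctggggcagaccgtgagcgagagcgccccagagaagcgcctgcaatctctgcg
Vgll4: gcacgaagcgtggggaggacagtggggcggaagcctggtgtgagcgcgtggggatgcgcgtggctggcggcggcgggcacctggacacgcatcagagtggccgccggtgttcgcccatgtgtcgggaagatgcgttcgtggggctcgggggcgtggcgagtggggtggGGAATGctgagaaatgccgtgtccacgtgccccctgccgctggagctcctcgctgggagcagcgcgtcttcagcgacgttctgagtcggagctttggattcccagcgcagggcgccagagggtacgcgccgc
The Ccn1 promoter holds 1 match, 103 to 98 bases before the start, in the form CATTCC. The Vgll4 promoter holds 1 match as GGAATG, 82 to 77 bases before the start. This listed start lies inside the annotated gene, which reaches chr6:114970007, so that the outermost start of Vgll4 was not searched. Yap1 has 1 match 141 to 136 bases before its start, and Wwtr1 has 1 match 136 to 131 bases before the first of its listed starts. The listed starts of Tead3 hold 1, 3 and 0 matches, and Tead2 holds 0. Among all 32851 promoters of this length, 4817 (14.7%) hold the letters at least once, and a match says nothing by itself about binding.

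Values are log2 intensities as deposited, and AU stands for the linear intensity. A level of 4.55, below which 95% of 1732 odorant, vomeronasal and trace amine receptor genes lay, was taken as background, and 15937 genes had a mean above it. Of the 9 genes, 8 had a mean above it, from 4.74 for Tead3 to 10.17 for Tead1, and Ccn2 at 4.29 was not above background. The array of anti-TEAD4 replicate a stood apart. Its median over all features was 4.50, against 4.19 to 4.29 on the other arrays, its receptor genes had a median of 4.02 against 3.68 to 3.82, and its mean correlation with the other arrays was 0.966 against 0.982 to 0.986. Among genes above background, the anti-TEAD4 pools differed from each other by a median of 0.45 on the log2 scale in either direction, against 0.18 and 0.22 in the control groups. The main results are therefore also given without that array. Groups were compared in limma, whose p values were adjusted over all 30175 genes. No gene, member or other, passed an adjusted p of 0.05 in any of the 4 comparisons (0% of genes called). With an unadjusted limma p under 0.05, 1341 genes were lower and 1226 higher against both control groups, and the methods' t-test on linear intensities called 5 to 10 genes after adjustment in the 3 comparisons of single groups.

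**Figure D1:**
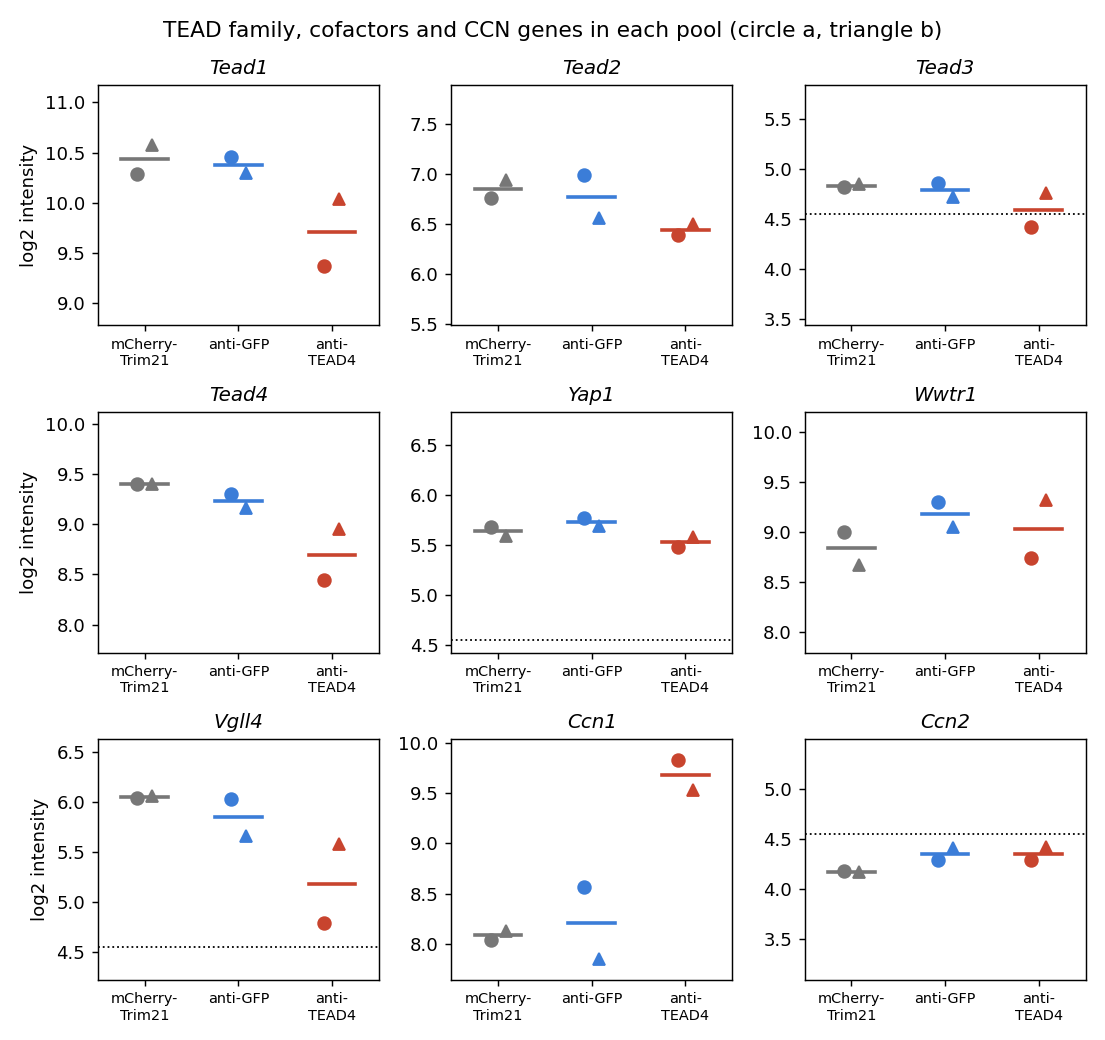
Log2 intensity (vertical axis of each panel) of the 9 genes in each pool of the mCherry-Trim21 mRNA, anti-GFP and anti-TEAD4 groups (horizontal axis). Circles are replicate a, triangles replicate b, bars the group means, and the dotted line the background level of 4.55. Each panel spans the same number of log2 units, so that heights can be compared between panels as differences and not as levels. Both anti-TEAD4 pools lie above all control pools for Ccn1 and below all of them for Tead1, Tead2, Tead4, Yap1 and Vgll4.

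In the plot of values by pool, Tead1, Tead2, Tead4, Yap1 and Vgll4 were lower in both anti-TEAD4 pools than in all 4 control pools, and Ccn1 was higher in both. These are 5 of 9 genes below the controls and 1 of 9 above, beside 7.68% of all genes below and 11.4% above. After quantile normalization those shares were 11.3% and 8.19%, and after centring each array on its median 12.8% and 5.89%. Among genes above background the shares were 12.6% below and 7.76% above. With an unadjusted limma p under 0.05 against both control groups, 3 of 9 genes were lower (Tead1, Tead4 and Vgll4), beside 4.44% of all genes, and 1 was higher (Ccn1), beside 4.06%. The median log2 difference over all genes was 0.06, and over genes above background -0.06.

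Tead4, the targeted factor, was measured here as RNA, whereas the antibody acts on the protein, so that its value is no check of the depletion. Its log2 intensity was 9.40 in both mCherry-Trim21 mRNA pools, 9.30 and 9.16 in the anti-GFP pools, and 8.44 and 8.95 in the anti-TEAD4 pools (replicates a and b). Both anti-TEAD4 pools lay below every control pool, the nearer one by 0.21, and the anti-TEAD4 pools differed from each other by more than that gap. The means were 675.6 AU, 601.2 ± 41.2 AU and 420.9 ± 104 AU (SD, n = 2). Against both control groups the log2 difference was -0.62 (SE 0.18, 95% confidence interval -1.07 to -0.17), or 1.54-fold lower, with an unadjusted limma p of 0.0157 and an adjusted p of 0.497. Without anti-TEAD4 replicate a the difference was -0.36, and without replicate b it was -0.87, so that the size depended on which anti-TEAD4 array was left out. Either fit leaves 1 anti-TEAD4 pool, whose spread cannot be estimated, so that no p value is given for it. In a pool of whole embryos, fewer cells that make an RNA and less of it per cell cannot be told apart.

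Tead1 is a widely expressed member of the family that uses the same partners. Its log2 intensity was 10.29 and 10.58 in the mCherry-Trim21 mRNA pools, 10.46 and 10.30 in the anti-GFP pools, and 9.37 and 10.04 in the anti-TEAD4 pools. Both anti-TEAD4 pools were the lowest of the 6, with a gap of 0.25 to the nearest control, and replicate a lay well below replicate b. The means were 1391.4 ± 197 AU, 1334.6 ± 105 AU and 857.2 ± 277 AU (SD, n = 2). The log2 difference from both control groups was -0.70 (SE 0.23, 95% confidence interval -1.27 to -0.14), or 1.63-fold lower, with an adjusted limma p of 0.521. It was -0.37 when anti-TEAD4 replicate a was left out and -1.04 when replicate b was.

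The other two members of the family had smaller differences. Tead2, the member known from embryonic and neural tissue, was at 6.76 and 6.94 in the mCherry-Trim21 mRNA pools, 6.99 and 6.56 in the anti-GFP pools, and 6.39 and 6.50 in the anti-TEAD4 pools. The anti-TEAD4 pools lay below all controls by a gap of 0.06, less than the 0.43 between the anti-GFP pools. Its log2 difference was -0.37 (SE 0.17, 95% confidence interval -0.79 to 0.06, adjusted limma p 0.612), and -0.31 without anti-TEAD4 replicate a. Tead3, known from placenta, was at 4.82 and 4.85, at 4.86 and 4.72, and at 4.42 and 4.76 in the same order of groups. These values are close to background and the groups overlap, with a log2 difference of -0.22 (SE 0.15, 95% confidence interval -0.60 to 0.15, adjusted limma p 0.67). All 4 TEAD genes had differences below 0, with a median of -0.49, as had 57.0% of all genes above background. The 4 were also below 0 after centring each array on its median (-0.81 for Tead1, -0.48 for Tead2, -0.33 for Tead3 and -0.73 for Tead4) or quantile normalization (-0.58, -0.25, -0.35 and -0.51). Without anti-TEAD4 replicate a the median of the 4 was -0.34, with Tead3 at -0.05.

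The coactivators showed less. Yap1 was at 5.68 and 5.59 in the mCherry-Trim21 mRNA pools, 5.77 and 5.69 in the anti-GFP pools, and 5.48 and 5.58 in the anti-TEAD4 pools. The anti-TEAD4 pools were the lowest, by a gap of 0.01, which is less than the difference between any pair of replicates. The log2 difference was -0.15 (SE 0.12, 95% confidence interval -0.46 to 0.15, adjusted limma p 0.702), and -0.10 without anti-TEAD4 replicate a. Wwtr1 was at 9.00 and 8.67, at 9.30 and 9.05, and at 8.74 and 9.32 in the same order. The anti-TEAD4 replicate b was the highest of all 6 pools and replicate a among the lowest, so that the groups overlapped. The log2 difference of Wwtr1 was 0.02 (SE 0.22, 95% confidence interval -0.52 to 0.57, adjusted limma p 0.971), with 0.32 when anti-TEAD4 replicate a was left out and -0.26 when replicate b was, and it was -0.08 after median centring and 0.16 after quantile normalization.

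Vgll4, the competitor of YAP, had the largest negative difference of the 9 genes against both control groups, whereas against anti-GFP alone that of Tead1 was larger. It was at 6.04 and 6.06 in the mCherry-Trim21 mRNA pools, 6.03 and 5.66 in the anti-GFP pools, and 4.79 and 5.58 in the anti-TEAD4 pools. Replicate a of anti-TEAD4 was close to background, and replicate b lay 0.08 below the lowest control, so that the gap was small beside the 0.79 between the anti-TEAD4 pools. The means were 66.3 ± 0.649 AU, 58.0 ± 10.5 AU and 37.8 ± 14.3 AU (SD, n = 2). The log2 difference was -0.76 (SE 0.26, 95% confidence interval -1.40 to -0.12), or 1.70-fold lower, with an adjusted limma p of 0.533. Leaving out anti-TEAD4 replicate a gave -0.37 and leaving out replicate b gave -1.16. The values were -0.87 and -0.83 after median centring and quantile normalization.

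**Figure D2:**
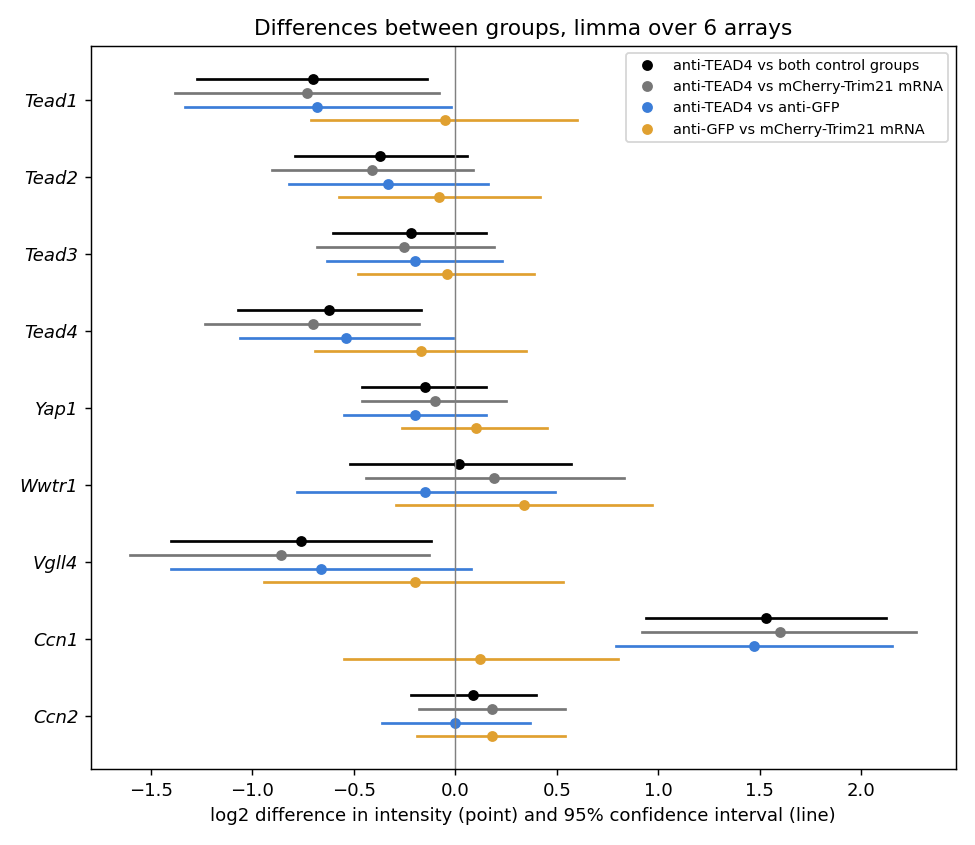
Log2 difference in intensity (horizontal axis, points, with lines for the 95% confidence interval from limma over 6 arrays) for the 9 genes (vertical axis) in 4 comparisons. For Ccn1 the 3 anti-TEAD4 comparisons lie at 1.47 to 1.60 with intervals above 0, whereas the anti-GFP comparison lies at 0.12 with an interval across 0.

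Ccn1, a CCN protein that binds integrins in the extracellular matrix, was higher with anti-TEAD4. Its log2 intensity was 8.04 and 8.13 in the mCherry-Trim21 mRNA pools, 8.57 and 7.85 in the anti-GFP pools, and 9.83 and 9.53 in the anti-TEAD4 pools. Both anti-TEAD4 pools lay above every control, the nearer one by 0.96, which is more than the difference between the pools of any group, the largest of which was 0.72 with anti-GFP. The means were 271.7 ± 12 AU, 305.4 ± 106 AU and 824.7 ± 121 AU (SD, n = 2). Against both control groups the log2 difference was 1.53 (SE 0.24, 95% confidence interval 0.94 to 2.12), or 2.89-fold higher, with an unadjusted limma p of 0.000872 and an adjusted p of 0.255, and 118 of the 30175 genes had a greater log2 difference. It was 1.38 without anti-TEAD4 replicate a, the array that stood apart, and 1.68 without replicate b. With each of the 6 arrays left out in turn, the difference lay between 1.35 and 1.71, and it was 1.42 after median centring and 1.71 after quantile normalization.

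Ccn2, the connective tissue growth factor, is the other classical target. It was at 4.18 and 4.17 in the mCherry-Trim21 mRNA pools, 4.29 and 4.41 in the anti-GFP pools, and 4.29 and 4.42 in the anti-TEAD4 pools. All 6 values lie below the background level, and the anti-GFP and anti-TEAD4 pools overlap almost fully. The log2 difference was 0.09 (SE 0.12, 95% confidence interval -0.22 to 0.40, adjusted limma p 0.803), with 0.16 without anti-TEAD4 replicate a, and -0.02 and -0.04 after median centring and quantile normalization. No fold is given, since the feature was not above background in any group, and nothing can be read from it about the RNA.

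**Figure D3:**
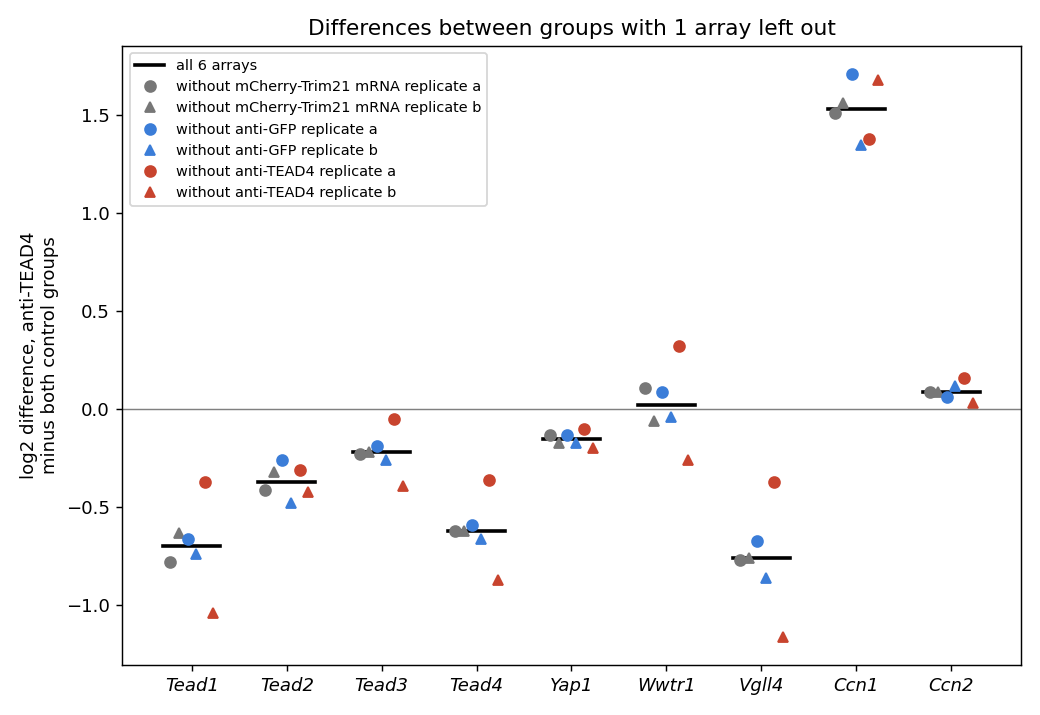
Log2 difference between anti-TEAD4 and both control groups (vertical axis) for the 9 genes (horizontal axis), with all 6 arrays (bar) and with 1 array left out (symbols by group and replicate). For Tead1, Tead4 and Vgll4 the symbols farthest from the bar are those without an anti-TEAD4 array, at -0.37 and -1.04, -0.36 and -0.87, and -0.37 and -1.16, whereas Ccn1 stays between 1.35 and 1.71.

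The plot of differences with an array left out shows that Tead1, Tead4 and Vgll4 kept their sign without either anti-TEAD4 array, but with the distance from the controls resting mostly on replicate a. Without that array their log2 differences were -0.37, -0.36 and -0.37. The remaining anti-TEAD4 pool, replicate b, lay below all controls for Tead1, Tead2, Tead4, Yap1 and Vgll4, beside 18.5% of all genes for which this single pool lay below all controls. It lay above them for Ccn1, Wwtr1 and Ccn2, beside 26.3% of all genes.

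The anti-TEAD4 pools were also set against each control group alone. These comparisons use the same anti-TEAD4 pools, and the comparison with both control groups uses all of the pools again, so that they are not independent. Against mCherry-Trim21 mRNA, the log2 difference was -0.73 (SE 0.26) for Tead1, -0.70 (SE 0.21) for Tead4, -0.86 (SE 0.29) for Vgll4 and 1.60 (SE 0.27) for Ccn1, with adjusted limma p values of 0.725, 0.684, 0.704 and 0.459. These 3 lower genes and Ccn1 had an unadjusted limma p under 0.05, beside 3.32% of all genes lower and 3.18% higher. Against anti-GFP, where both groups had received an antibody, the log2 difference was -0.68 (SE 0.26) for Tead1, -0.54 (SE 0.21) for Tead4, -0.66 (SE 0.29) for Vgll4 and 1.47 (SE 0.27) for Ccn1. Here Tead1, Tead4 and Ccn1 had an unadjusted limma p under 0.05, beside 3.76% of all genes lower and 2.84% higher, and the adjusted limma p values of all 4 genes lay between 0.458 and 0.738. Wwtr1 differed in sign between the comparisons, at 0.19 from the embryos with mCherry-Trim21 mRNA alone and -0.15 from those with anti-GFP, neither beyond its error.

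The antibody without a target served as the control comparison. Its groups also differed in the RNA of the injected ligase, with Trim21 at a log2 difference of 2.08 (SE 0.52), which did not pass after adjustment. Between anti-GFP and mCherry-Trim21 mRNA, 0 of 9 genes had an unadjusted limma p under 0.05, beside 0.351% of all genes lower and 0.742% higher. That fit shares its spread with the anti-TEAD4 pools, which differed more from each other. With only the control groups fitted, 0 of 9 genes were called, beside 389 of all genes lower and 650 higher. The largest of the 9 log2 differences was that of Wwtr1 at 0.34 (SE 0.25, 95% confidence interval -0.29 to 0.97). The others lay between -0.20 for Vgll4 and 0.18 for Ccn2, with Ccn1 at 0.12 and Tead4 at -0.17, and all adjusted limma p values were 1.

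**Figure D4:**
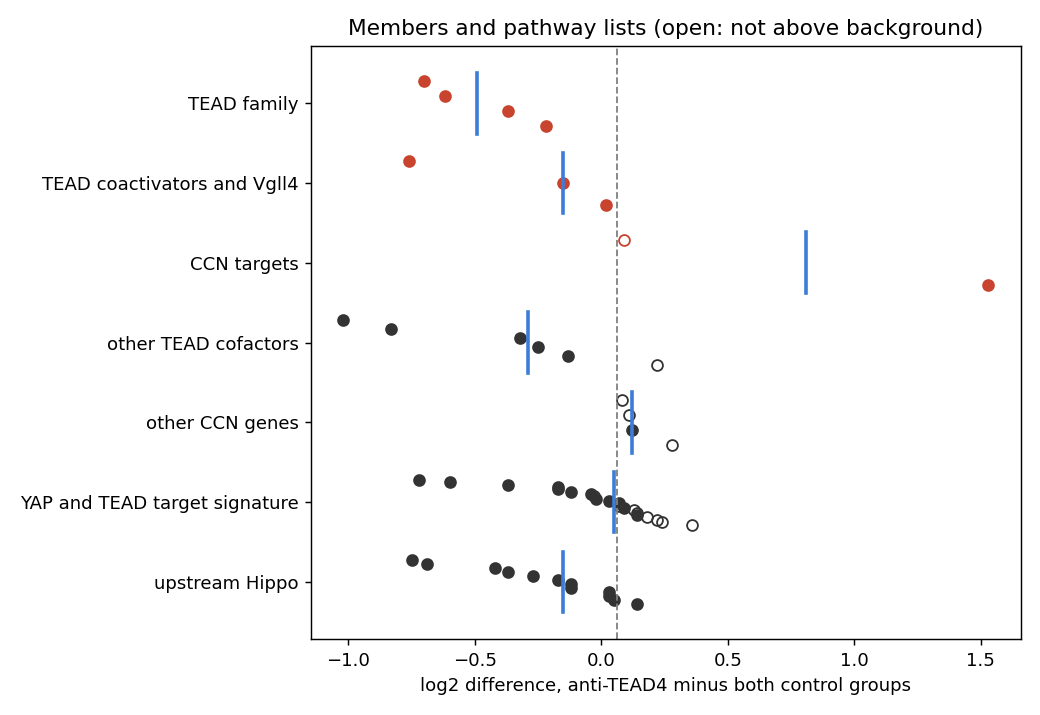
Log2 difference between anti-TEAD4 and both control groups (horizontal axis) for single genes (points) in the 9 genes followed here (red) and in 4 further lists (black), by list (vertical axis). Vertical blue bars are list medians, the dashed line is the median of all genes at 0.06, and open points are genes not above background. Ccn1 at 1.53 is the highest point drawn and Vgll3 at -1.02 the lowest.

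Further genes of the pathway were taken from lists of other TEAD cofactors, other CCN proteins, YAP and TEAD targets known from human cancer cells, and the upstream Hippo kinases with their regulators. None of these genes passed an adjusted limma p of 0.05. Of 6 other TEAD cofactors (Vgll1, Vgll2, Vgll3 and the nuclear receptor coactivators Ncoa1, Ncoa2 and Ncoa3), 3 lay below all controls in both anti-TEAD4 pools and 0 above, beside 7.68% of all genes below and 11.4% above. Their median log2 difference was -0.29. Vgll3, a vestigial-like partner of TEAD, was at 6.38 and 6.27 in the mCherry-Trim21 mRNA pools, 6.26 and 6.58 in the anti-GFP pools, and 5.54 and 5.16 in the anti-TEAD4 pools. Its groups did not overlap, and the array that stood apart was the higher of the anti-TEAD4 pair. The log2 difference of Vgll3 was -1.02 (SE 0.18, unadjusted limma p 0.00154, adjusted p 0.297), and -1.21 without anti-TEAD4 replicate a. Ncoa1, a general coactivator, was at -0.83 (SE 0.30), with -0.43 without that array.

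Of the 4 other CCN genes (Ccn3, Ccn4, Ccn5 and Ccn6), 1 was above background, and 0 lay beyond all controls in either direction. Ccn5, the one above background, had a log2 difference of 0.12 (SE 0.14), and -0.05 without anti-TEAD4 replicate a. Among 20 genes of the target signature, 12 were above background, 2 lay below all controls and 1 above, which is near the shares of all genes (7.68% and 11.4%), and the median log2 difference was 0.05, close to that of all genes. These 20 genes held 3 with an unadjusted limma p under 0.05, all lower, beside 4.44% of all genes. Dock5, a guanine nucleotide exchange factor, was at -0.72 (SE 0.19) and Myof, a membrane repair protein of the ferlin family, at -0.60 (SE 0.17), with -0.53 and -0.69 without anti-TEAD4 replicate a. Arhgef17 was at -0.37 (SE 0.13), or -0.24 without that array, but its anti-TEAD4 pools overlapped the controls. The log2 difference of Arhgef17 was -0.06 against anti-GFP alone (unadjusted limma p 0.713), and the anti-GFP pools were themselves below those with mCherry-Trim21 mRNA by a log2 difference of -0.61, so that its value rests on a single control group. The gene above all controls, Rbms3, was not above background. Of the 20 signature genes, 9 had log2 differences below 0. Among all genes above background the share below 0 was 57.0%, but only 12 of the 20 were above background.

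Of 13 upstream Hippo genes, 12 were measured, all above background, of which 3 lay below all controls and 0 above. Of all genes above background, 12.6% lay below and 7.76% above. The median log2 difference of the Hippo genes was -0.15, or -0.04 without anti-TEAD4 replicate a. Lats2, Amotl2 and Ptpn14 belong to this list and to the target signature. Amot, the angiomotin that ties YAP to junctions and activates LATS kinases, was at 7.23 and 7.16 with anti-TEAD4 against 7.74 to 8.30 in the controls, a log2 difference of -0.75 (SE 0.19, adjusted limma p 0.427). Nf2, the gene of Merlin, was at -0.69 (SE 0.19, adjusted limma p 0.468). Without anti-TEAD4 replicate a these were -0.78 for Amot and -0.51 for Nf2.

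Markers of cell types differed between the groups as well, none with an adjusted limma p under 0.05, and their part in the values above was not tested. Of 7 trophectoderm markers, 6 were measured. The missing one was Gata3, annotated only on features with several symbols, for which the authors report a marked reduction. Of the 6, 4 lay below all controls in both anti-TEAD4 pools, beside 7.68% of all genes and 12.6% of those above background. The 4 were Cdx2, Krt8, Krt18 and Eomes, of which Eomes had a gap of only 0.01 to the nearest control. The summed intensity of the 6 was 36000 to 69500 AU against 271000 to 277000 AU in the controls, most of it from Krt8 and Krt18. The median log2 difference of these markers was -1.35, or -0.99 without anti-TEAD4 replicate a, with Cdx2, which specifies the lineage, at -1.89 (SE 0.24) and the keratin genes Krt8 and Krt18 at -2.57 and -2.47. Without that array Cdx2 was at -1.53, Krt8 at -1.70 and Krt18 at -2.17. Eomes was at -0.81 (SE 0.39), but at -0.10 without that array. Tfap2c was at -0.34 (SE 0.26) with pools that overlapped the controls, and Elf5, at 0.03, was not above background. The summed intensity of 3 pluripotent cell markers (Pou5f1, Nanog, Sox2) was 73800 to 122000 AU against 86600 to 108000 AU. That of 3 measured primitive endoderm markers (Gata6, Gata4, Sox17) was 7680 to 7780 AU against 5400 to 8810 AU. Both sums overlapped the controls. Nanog made up most of the first sum and Gata6 nearly all of the second, at means of 92086 and 7697 AU with anti-TEAD4. Gata4 and Sox17 were not above background, so that the sums say little about the other markers. Among the pluripotent cell markers, only Sox2 lay above all controls in both anti-TEAD4 pools, at 9.21 and 9.22 against 8.32 to 8.97. Of all genes, 11.4% lay above all controls. The log2 difference of Sox2 was 0.61 (SE 0.14, unadjusted limma p 0.00615, adjusted p 0.40), and also 0.61 without anti-TEAD4 replicate a. Pou5f1 was at -0.30 (SE 0.21) and Nanog at -0.05 (SE 0.24), both overlapping the controls, with 0.02 and 0.32 without that array. The 6 markers of cumulus cells summed to 208 to 238 AU against 169 to 188 AU, with 3 of them (Ptx3, Tnfaip6, Fshr) not above background, and their median log2 difference was 0.31, or 0.14 without anti-TEAD4 replicate a. Trim21, the injected ligase, was at 12.11 and 11.47 with anti-TEAD4 against 7.56 to 10.60 in the controls, so that the groups also differed in this RNA. Against anti-GFP alone the log2 difference of Trim21 was 1.41 (unadjusted limma p 0.039, adjusted p 0.738). Against mCherry-Trim21 mRNA alone it was 3.48 (unadjusted limma p 0.000781, adjusted p 0.386). Between anti-GFP and mCherry-Trim21 mRNA it was 2.08 (unadjusted limma p 0.00877), which did not pass after adjustment. The mCherry-Trim21 mRNA pools themselves differed by 1.49 in Trim21. The part of Trim21 in the values above was not tested either.

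The genes whose values across the 6 arrays were most like those of Tead4, Ccn1 and Ccn2 were looked up among genes with a mean log2 intensity above 6, by Pearson's r. Over 7448 genes ranked, the closest to Tead4 was Plekhb2 (r 0.997), and the 3 highest r lay between 0.996 and 0.997. The closest to Ccn1 was Cited1 (r 0.988), with the 3 highest between 0.984 and 0.988. The closest to Ccn2, over 7449 genes, was Rpl13-ps3 (r 0.998), with the 3 highest between 0.984 and 0.998, although Ccn2 itself was not above background. An r above 0.95 was reached by 300 genes for Tead4, 13 for Ccn1 and 18 for Ccn2. These correlations share the arrays and the grouping of the pools, and are a description over 6 points.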

How the data were processed

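RNA of a pool was labelled and read on an Affymetrix Mouse Transcriptome Array. In the Affymetrix Expression Console the authors ran robust multiarray averaging, and they deposited log2 intensities with 2 decimals. The console's version and the genome build of the array annotation are not given in the sources used here. For values in AU the log2 intensities were raised back to the linear scale. In 1 column a deposited value lay far beyond any log2 intensity, and that feature was left out of the table of 65956. Of the 65955 used, 30637 carried 1 gene symbol in GEO's platform annotation, 2176 several and 33142 none here. A gene was its brightest feature with 1 symbol, which gave 30175 genes. Arrays hold no counts, and their number limits the precision.

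With limma 3.58.1 in R 4.3.3, means of the 3 groups were fitted over the 6 arrays (3 residual and 2.517 prior degrees of freedom), as the moderated form of the analysis of variance named in the methods. The Benjamini-Hochberg adjustment ran over all genes. Tables were made with pandas 2.3.3 and numpy 2.4.6, and plots with matplotlib 3.10.9, in Python 3.11.15. The fit was tested on simulated data.

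Besides the 9 genes, up to 4 genes per pathway or marker list were eligible to be named, those above background with the largest absolute log2 difference, and for likeness the 3 genes with the highest r, of which the first is given. Genes outside this rule (Rbms3, Tfap2c, Elf5 and members listed by name) were chosen after their values were seen. The genes and lists were chosen with earlier results of these data known. The alternatives were leaving out each array, a block for the replicate letter, fitting only the groups compared, a spread that follows intensity (trend), median centring or quantile normalization of the arrays, a filter on dim genes, averaging the features of a gene, features with several symbols, and the methods' analysis of variance and t-test. A turn of sign was counted only if the value passed the test in one of the fits or was larger than its standard error.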

Additional observations from a re-analysis of the deposited data

How the results depend on the processing

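Of 554 values of the 9 genes under these alternatives, 528 kept sign and call (Ccn2 against anti-GFP, a difference that rounds to 0, is counted here), 12 turned in sign within their standard error (Wwtr1, Ccn2, Tead1, Tead2 and Tead3), 12 came to pass an adjusted p under 0.05 and 2 turned in sign beyond their standard error. Those that came to pass are Tead1, Tead4, Vgll4 and Ccn1 in the 3 anti-TEAD4 comparisons without anti-TEAD4 replicate b, where 1 pool is assumed to vary like the other groups. The adjusted p of limma over all alternatives ranged from 0.0282 to 0.963 for Tead1, 0.0253 to 0.963 for Tead4, 0.0251 to 0.963 for Vgll4 and 0.0287 to 0.879 for Ccn1, against both control groups. Beyond the standard error, the sign turned for Wwtr1 against both control groups without anti-TEAD4 replicate b (-0.26, range -0.26 to 0.32 with an array left out) and for Ccn1 between anti-GFP and mCherry-Trim21 mRNA without anti-GFP replicate a (-0.23, range -0.23 to 0.49). The cause was not tested.

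Over all genes, the count with an adjusted p under 0.05 ranged with an array left out from 0 to 2846 against mCherry-Trim21 mRNA, 0 to 2792 against anti-GFP and 0 to 4024 against both, each highest without anti-TEAD4 replicate b. Quantile normalization gave 1 gene against both, and the methods' t-test gave 9 genes against mCherry-Trim21 mRNA, 5 against anti-GFP and 10 between the controls. Whether the genes from the t-test had rounded values that were equal within both groups was not tested, so that they are not read as differences. At its own threshold of 0.01 that test gave 284, 230 and 231 genes, with 0 of the 9. It was not run for both control groups together, where a fit of only the groups compared is the same fit.

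Of the 9 genes, the number with an unadjusted p under 0.05 against mCherry-Trim21 mRNA was 4, beside 1003 of all genes lower and 959 higher. It was 2 with the intensity trend (797 and 1102 of all genes), 2 with analysis of variance (734 and 992) and 1 with the methods' t-test (601 and 866). Against anti-GFP it was 3, beside 1134 of all genes lower and 857 higher. It was 1 with only the groups compared (750 and 518), the trend (868 and 1101), analysis of variance (858 and 898) or the t-test (589 and 632). With dim genes left out it was also 1 (841 and 295 of 15937 genes). Against both it was 4 (1341 and 1226 of all genes), and 2 with the trend (1086 and 1480) or analysis of variance (966 and 1186). With an array left out, the numbers of the 9 genes went both down and up in each of these comparisons. Such a fit leaves 1 pool in a group, so that its numbers are not given here. Above all controls lay 1 to 3 of the 9 with an array left out, 3 without anti-TEAD4 replicate a. In that setting 26.3% of all genes lay above all controls, against 11.4% with all arrays.

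The share of lower genes among those beyond all controls was 40.2%, against 57.9% after quantile normalization and 68.4% after median centring, and among unadjusted calls against both it was 52.2%, against 59.4% and 73.6%. Median centring moved the median of all genes by -0.11. Under quantile normalization Tead2 no longer lay below all controls. The letters a and b did not pair the pools (correlations of a minus b between groups from -0.57 to 0.17). With the letter as a replicate block the counts of the 9 genes were 4, 2, 4 and 0 in the 4 comparisons. Of all genes, 917, 1113, 1265 and 84 were then lower and 806, 775, 1064 and 198 higher, and 0 genes passed the adjusted p.

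Tead3 lies close to background and Ccn2 below it, so that small differences in these genes cannot be read.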
